A study of Mus musculus with 3 samples.

Results

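Proliferating mature thymocytes are cells that carry transcripts of the late, single-positive stage of T cell development together with transcripts of the dividing cell. They were chosen by unique molecular identifier (UMI) counts of 5 genes in cells with at least 500 genes and under 10% mitochondrial UMIs. A member had at least 2 UMIs of Mki67 and Top2a summed, at least 2 UMIs of Ms4a4b, no UMI of Foxp3 and at most 10 UMIs of Cd74. Mki67 encodes a chromosome surface protein of cycling cells, and Top2a encodes the topoisomerase that untangles replicated DNA. Ms4a4b encodes a membrane protein of mature T cells, Foxp3 the transcription factor of regulatory T cells and Cd74 the invariant chain of MHC class II. The rule found 311 members among 23864 filtered cells. Whole thymus of female mice, 4 weeks old and with p53 alterations in the germline, gave 1 library per genotype. The members numbered 97 of 8150 filtered cells in the p53+/- library, 67 of 6171 in the p53 AD/- library and 147 of 9543 in the p53-/- library. Every genotype carried at least 1 allele labelled minus, also the p53+/- animal, which the series text calls wild type. What the AD allele is was not stated in the labels, although p53 dimers are the subject of the series title. The labels give the strain as 50% BALB/C with 50% C57BL6 for p53+/-, C57BL7 for p53 AD/- and C57BL8 for p53-/-.

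Thymocytes divide at 2 known points of their development. The first is the burst of double-negative and early double-positive cells after beta-selection, before the cells rearrange the T cell receptor alpha chain with the Rag1 and Rag2 recombinase. The second is a late expansion of selected single-positive cells in the medulla, shortly before they leave the thymus through the sphingosine-1-phosphate receptor S1pr1. Between these points the cells are quiescent, and the mature stage is marked by the transcription factor Klf2, the receptor Ccr7, high MHC class I and a tonic interferon signature. Dividing mammalian cells express S phase genes through E2F factors and G2/M genes through the MuvB complex with MYBL2 and FOXM1, which binds promoters through the cell cycle homology region, often beside a CCAAT box.

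Members were described against 1168 non-cycling mature cells, with at least 2 Ms4a4b UMIs and no Mki67 or Top2a UMI, and against 3591 cycling Ms4a4b-negative cells, with at least 2 Mki67 and Top2a UMIs and none of Ms4a4b. The limits on Foxp3 and Cd74 applied to the members alone. Since the rule itself set the members apart from both groups, these contrasts describe the members and test nothing. With 1 library per genotype no test between genotypes was possible either, and the 95% intervals are exact ones for counting error alone. The libraries held 27638820 to 54164425 UMIs over 6308 to 9889 barcodes, and the median filtered cell held 2484 to 3238.5 UMIs. Members were deep cells, with a median of 16579 UMIs in p53+/-, 12412 in the p53 AD/- library and 13252 in p53-/-. The median was 5230 to 6262 UMIs in non-cycling mature cells and 10400 to 11722.5 in cycling Ms4a4b-negative cells. Libraries shared 15 to 29 barcodes per pair, and no member carried a shared barcode. Doublets were not removed: the Scrublet caller marked almost no cell. By its score alone, 18.6% of p53+/- members, 10.4% of p53 AD/- members and 30.6% of p53-/- members were among the top scoring cells, against 5.5% to 7.4% of non-cycling mature cells and 2.8% to 9.1% of cycling Ms4a4b-negative cells. The part of doublets in the results was not tested.

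The members were a small share of the thymus in each library. They made up 1.19% (interval 0.966% to 1.45%) of filtered cells in p53+/-, 1.09% (0.842% to 1.38%) in p53 AD/- and 1.54% (1.30% to 1.81%) in p53-/-. The p53-/- share was the highest, and its interval overlapped those of the other two. Among mature cells, the members were 17.4% of 556 cells in p53+/-, 17.5% of 383 in p53 AD/- and 20.4% of 719 in p53-/-. Among cells with at least 2 Mki67 and Top2a UMIs, they were 7.56% in the p53+/- library, 7.96% in p53 AD/- and 7.17% in p53-/-, while such cycling cells made up 15.7%, 13.6% and 21.5% of filtered cells in the same order. Thinning to 3000 UMIs, with shallower cells left out, left 29 members of 4656 cells in p53+/-, 29 of 2393 in p53 AD/- and 73 of 4903 in p53-/-. The thinned shares were 0.623% (0.418% to 0.893%), 1.21% (0.813% to 1.74%) and 1.49% (1.17% to 1.87%). The thinned cells were thus 4656 of 8150, 2393 of 6171 and 4903 of 9543 filtered cells, a smaller part of the p53 AD/- library than of the others. Among them p53+/- had the lowest share, and the order of p53+/- and p53 AD/- was the opposite of the unthinned one. At least 2 Ms4a4b UMIs were found in 1.18%, 1.06% and 1.89% of cells with Rag1 and Dntt UMIs but no Mki67 or Top2a UMI. At least 1 was found in 5.47%, 4.11% and 5.83%. The median depth of these cells was 2820.5, 2092 and 2392 UMIs, below that of the members, so the shares are no background level for the members. The part of free RNA in them was not tested.

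**Figure D1:**
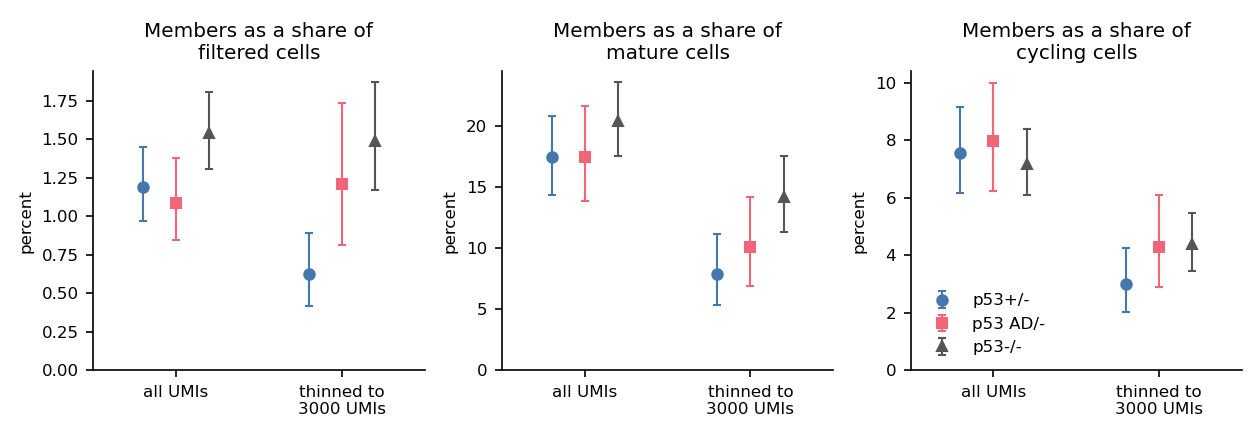
Members as a percentage of filtered cells, of mature cells and of cycling cells, with all UMIs and with cells of at least 3000 UMIs thinned to that number. Points are the 3 libraries and bars are exact 95% intervals of counting error. Among filtered cells thinned to 3000 UMIs, p53+/- lies at 0.623% and p53-/- at 1.49%.

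The rule genes spanned a wide range within the members. Ms4a4b had a median of 7 UMIs per member in p53+/- (2 to 41), 10 in p53 AD/- (2 to 42) and 9 in p53-/- (2 to 42). Mki67 and Top2a together had a median of 22 UMIs in p53+/- (2 to 181), 16 in p53 AD/- (2 to 108) and 20 in p53-/- (2 to 517). The members at the lower limit of the rule differed from the rest. Members with exactly 2 Ms4a4b UMIs held 18 mature single-positive markers at 1364 CPM (the group's UMIs of these genes, scaled to a total of 1000000) in p53+/-, 4134 in the p53 AD/- library and 2924 in p53-/-, and cycling cells with 1 Ms4a4b UMI, just outside the rule, held them at 1683, 2059 and 1729 CPM. The level at the lower limit in p53+/- was that of cycling Ms4a4b-negative cells, 1365 CPM. At the other limit, members with exactly 2 Mki67 and Top2a UMIs held G2/M genes at 3501, 2521 and 2277 CPM, and cells with 1 such UMI at 2291, 2423 and 2569 CPM. These 14, 13 and 19 members lay near the G2/M level of non-cycling mature cells, 2081 to 2082 CPM. They lay far below that of all members, 14214, 12472 and 14603 CPM, so that by G2/M genes the label "proliferating" rests on the other members. Their S phase genes stood at 942, 2195 and 2320 CPM, against 904, 1037 and 1080 CPM in non-cycling mature cells. All members held S phase genes at 4902, 4755 and 4881 CPM. By this list the members at the limit lay near non-cycling mature cells in p53+/-. In p53 AD/- and p53-/- they lay between these cells and all members. The limits on Cd74 and Foxp3 left out 2, 1 and 4 cells and 1, 1 and 5 cells.

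The members include cells with and cells without transcripts of the recombination stage. By mature markers, the label "mature" fits the second kind and part of the first. No UMI of Rag1, Rag2 or Dntt, the enzymes of receptor rearrangement, was found in 51 of 97 p53+/- members (52.6%), 41 of 67 p53 AD/- members (61.2%) and 69 of 147 p53-/- members (46.9%). Among cycling Ms4a4b-negative cells such cells were 3.0% to 4.01%, and among non-cycling mature cells 66.0% to 72.8%. Thinning to 3000 UMIs raised the share in members to 93.1%, 69.0% and 72.6%. In the members without these UMIs, the median cell held the mature single-positive markers at 10407 CPM in the p53+/- library, 10514 in p53 AD/- and 11086 in p53-/-. In the members with them the medians were 3970, 8589 and 5768 CPM, and single cells ran from 485 to 13844, from 1010 to 15197 and from 495 to 16948 CPM. Both kinds therefore overlap. At or below the summed level of cycling Ms4a4b-negative cells, 1365, 1321 and 1748 CPM, lay 10 of 46, 1 of 26 and 16 of 78 members with a recombination transcript, and 0 of 51, 0 of 41 and 1 of 69 without. Preselection double-positive markers other than Rag1, Rag2 and Dntt had medians of 881, 945 and 956 CPM in members without these UMIs and 2067, 2385 and 2210 CPM in members with them. The members with recombination transcripts were deeper, with medians of 18614, 15009 and 15215.5 UMIs against 14951, 11498 and 11876, and more of them scored high in Scrublet, 28.3%, 15.4% and 38.5% against 9.80%, 7.32% and 21.7%. The part of depth and of doublets in this split was not tested. Values of members without Rag1, Rag2 and Dntt UMIs, called Rag-free below, are given for a number of results. This filter applied to the members alone. Both comparison groups kept their cells with such UMIs, which are most of the cycling Ms4a4b-negative cells. Lower levels of preselection genes in Rag-free members therefore follow in part from the choice.

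**Figure D2:**
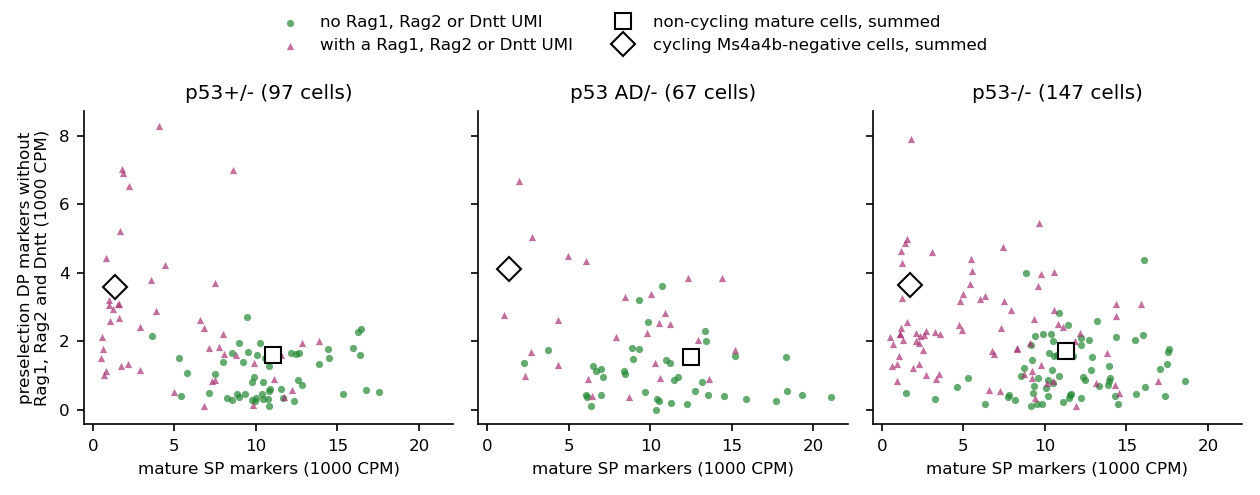
Each of the 311 members by its summed mature single-positive markers (x, 1000 CPM) and its summed preselection double-positive markers without Rag1, Rag2 and Dntt (y, 1000 CPM), 1 panel per library. Circles are members without a Rag1, Rag2 or Dntt UMI, triangles members with one, and open symbols the summed comparison groups. The circles gather near the non-cycling mature cells on the x axis and mostly below them on the y axis. The triangles spread toward the cycling Ms4a4b-negative cells.

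By coreceptor UMIs, cells with CD8 alone were the most frequent class of members. A missed Cd4 UMI can place a double-positive cell in this class, so it is not a count of CD8 single-positive cells. The class held 39.1%, 57.7% and 30.8% of members with recombination transcripts and 58.8%, 63.4% and 56.5% of Rag-free members. Cells with Cd8a or Cd8b1 but no Cd4 UMI were 49.5% of members in p53+/-, 61.2% in the p53 AD/- library and 42.9% in p53-/-, and cells with Cd4 alone were 11.3%, 10.4% and 11.6%. Among the shallower non-cycling mature cells the shares were 38.8%, 46.0% and 39.9% for CD8 and 19.0%, 15.4% and 18.9% for CD4. Both coreceptors were found in 36.1%, 19.4% and 36.7% of members and in 21.6%, 9.76% and 21.7% of Rag-free members. Nkg7, a granule protein of cytotoxic T cells, had a UMI in 45.4% of p53+/- members, 58.2% of p53 AD/- members and 38.8% of p53-/- members. At 3000 UMIs per cell the Nkg7 share was 37.9%, 51.7% and 34.2% in members, 25.2%, 30% and 24.3% in non-cycling mature cells and 0.327%, 0.948% and 0.709% in cycling Ms4a4b-negative cells. The last group was chosen for having no Ms4a4b UMI, so its Nkg7 share cannot bound free RNA in the members. In the unthinned cells with Rag1 and Dntt UMIs and neither Mki67 nor Top2a, Nkg7 was found in 0.969%, 0.980% and 1.31%. In the Rag-free members the Nkg7 share was 56.9%, 48.8% and 40.6%, so that p53 AD/- was not the highest there. Runx3, which directs the CD8 fate, had a UMI in 49.5%, 52.2% and 53.7% of members, and Zbtb7b, which directs the CD4 fate, in 12.4%, 10.4% and 12.2%. The innate gene Eomes was found in 11.3%, 11.9% and 8.16%.

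The emigration genes were present in a majority of members. Ccr7, the chemokine receptor that guides selected cells to the medulla, had a UMI in 60.8%, 80.6% and 72.1% of members, and S1pr1 in 50.5%, 56.7% and 55.1%. The lowest share of both was in p53+/-. The members used many T cell receptor beta genes. In 53, 24 and 67 members 1 Trbv gene had more UMIs than any other, over 15, 13 and 18 different Trbv genes. Members with a tie between Trbv genes or without a Trbv UMI were left out. The most used gene was Trbv19 in p53+/- with 20.8% (10.8% to 34.1%) of these cells, and Trbv2 in p53 AD/- with 20.8% and in p53-/- with 14.9%. No single beta gene thus held a majority of the members counted in any library. Among the other cell types a thymus library could hold, B cell markers reached 158, 134 and 154 CPM in members, with 3, 5 and 2 of 8 markers at 0. Myeloid and dendritic markers, without the rule gene Cd74, reached 22.6, 57.0 and 20.7 CPM, with 5, 3 and 2 of 11 at 0. Regulatory T cell markers other than Foxp3 reached 407, 349 and 396 CPM in members against 663, 580 and 685 CPM in non-cycling mature cells, and gamma-delta T cell markers reached 213, 246 and 332 CPM against 171, 163 and 158 CPM. In Rag-free members the gamma-delta markers stood at 79.8, 54.8 and 232 CPM, below non-cycling mature cells in p53+/- and p53 AD/- and above them in p53-/-. Granulocyte markers reached 5.52, 0 and 12.8 CPM, with 3, 5 and 1 of 5 at 0.

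Against non-cycling mature cells, the members held most measured S phase, G2/M and histone genes at higher levels. Of 6972 genes with enough counts in every group, 397 were higher in members by a log2 CPM ratio of at least 1 in each library (5.69% of genes), and 93 were lower (1.33%). With 2 libraries sharing the direction in place of 3, the lower genes were 141 without p53+/-, 231 without p53 AD/- and 151 without p53-/-. All 43 S phase genes and all 47 measured G2/M genes had a ratio above 0 in each library, beside 2149 of all 6972 genes. The ratio reached 1 in each library for 40 S phase genes (median log2 ratio 2.39) and 42 G2/M genes (median 4.61), while the median of all genes was -0.06. Of 15 replication-dependent histone genes all 15 were past that ratio, with a median of 3.05. These histone genes are near-identical copies, and the counting may have split their reads. G2/M genes made up 14214, 12472 and 14603 CPM of the members and 2081 to 2082 CPM of non-cycling mature cells. S phase genes made up 4902, 4755 and 4881 CPM against 904, 1037 and 1080 CPM. More UMIs of the G2/M list than of the S phase list were found in 80.4%, 80.6% and 78.9% of members. The lists differ in length and the rule used a G2/M gene pair, so this share is not a share of cells in a phase.

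The 10 genes with the highest ratios included 2 histone genes and several genes of the spindle. Bub1, a kinase of the spindle checkpoint, was found at 77.8 CPM in p53+/- members, 52.1 in p53 AD/- members and 72.4 in p53-/- members, and at 0.736, 0.598 and 0.699 CPM in non-cycling mature cells. Its log2 ratio was 6.72 in the p53+/- library, 6.44 in p53 AD/- and 6.69 in p53-/-. Pclaf, a PCNA-binding protein of the replication fork, stood at 867, 906 and 826 CPM against 10.7, 7.77 and 8.39 CPM. The 2 groups were far apart in each library for both genes. Cdkn3, a phosphatase of cyclin-dependent kinases, stood at 48.0, 51.1 and 53.8 CPM against 0.368, 0.598 and 0.699 CPM. Aspm, Sgo2a, Cenpf and Tpx2, which organise spindle poles, centromeres and microtubules, had log2 ratios from 6.06 to 7.74 over the 3 libraries. Esco2, the acetyltransferase that locks cohesin in S phase, stood at 161, 159 and 125 CPM. In p53 AD/- non-cycling mature cells Esco2 had no UMI, so its log2 ratio there was at least 6.47, taken against a floor of 3 UMIs over the group. The histone genes Hist1h3b and Hist1h3c stood at 225, 333 and 66.2 CPM and at 645, 347 and 324 CPM, with at most 8.47 CPM in non-cycling mature cells.

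The promoters of genes in these lists are shown because these genes were higher together in members. They come from the RefSeq promoter table (build GRCm38.p6), as the 250 bases before the gene's start, read 5′ to 3′ on the gene's strand. Capitals mark CCAAT boxes (CCAAT or ATTGG) and the cell cycle homology region (TTTGAA or TTCAAA). Cdkn3 lies at chr14:46760291-46760540 on the plus strand, Bub1 at chr2:127831860-127832109 on the minus strand and Pclaf at chr9:65890073-65890322 on the plus strand.
Cdkn3: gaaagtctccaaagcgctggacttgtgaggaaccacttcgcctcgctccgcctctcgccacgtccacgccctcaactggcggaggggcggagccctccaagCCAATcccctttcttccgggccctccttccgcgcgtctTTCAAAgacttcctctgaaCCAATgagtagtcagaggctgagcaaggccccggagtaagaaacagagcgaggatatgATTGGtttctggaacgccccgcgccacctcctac
Bub1: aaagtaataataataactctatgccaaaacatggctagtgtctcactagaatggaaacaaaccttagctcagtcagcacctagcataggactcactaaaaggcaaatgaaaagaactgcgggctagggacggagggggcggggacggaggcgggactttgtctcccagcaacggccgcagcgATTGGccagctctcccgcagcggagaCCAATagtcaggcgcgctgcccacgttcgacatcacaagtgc
Pclaf: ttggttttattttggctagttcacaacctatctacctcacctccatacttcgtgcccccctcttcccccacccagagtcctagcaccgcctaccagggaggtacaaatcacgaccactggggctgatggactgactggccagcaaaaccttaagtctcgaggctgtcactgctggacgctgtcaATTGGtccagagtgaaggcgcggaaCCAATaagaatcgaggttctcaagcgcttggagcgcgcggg

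The Cdkn3 promoter held 3 CCAAT boxes and 1 cell cycle homology region, and the Bub1 and Pclaf promoters held 2 CCAAT boxes each and no homology region. Both strands were searched, and the motifs do not overlap each other. Of 54 G2/M genes 47 matched the table, and 36 of them (76.6%) held a CCAAT box, 19 (40.4%) the homology region and 17 (36.2%) both. Over all 20242 promoters of the same length the shares were 35.3%, 14.8% and 5.41%. Of 31 matched S phase genes, 22 (71.0%) held a CCAAT box and 14 (45.2%) an E2F motif (TTCCCGC or TTGGCGC on either strand), against 6.86% of all promoters with the E2F motif. Among 14 matched mature single-positive markers, 6 (42.9%) held a CCAAT box and 1 (7.14%) the homology region. A match is a run of letters and no measured site.

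Among the cyclins and their kinases, 8 of 13 measured genes were higher in members by the same rule and 1, Ccnd2, was lower. Ccna2, the S phase and mitotic cyclin, stood at 123, 131 and 140 CPM in members against 2.21, 1.20 and 2.80 CPM, and Ccnb1, the mitotic cyclin, at 97.2, 76.6 and 109 CPM against 1.47, 1.79 and 2.45 CPM. In Rag-free members 3 of 7 measured genes of this list were higher and none was lower. Of 10 measured E2F and MuvB regulators, 6 were higher (median 1.68), and in Rag-free members 1 of 3 measured (median 0.08). Among the 6 was E2f1, the activating factor, with log2 ratios of 3.25, 3.04 and 3.02. Of 22 nucleotide and one-carbon genes 12 were higher (median 1.28). They include Tyms, thymidylate synthase, at 198, 217 and 177 CPM against 11.8, 9.57 and 10.5 CPM, and Tk1, thymidine kinase, at 80.0, 94.3 and 79.0 CPM against 1.10, 1.20 and 1.75 CPM. Of 12 measured CDK inhibitors and quiescence genes, 1 was higher and 1 lower. The first was Cdkn2c, an inhibitor of CDK4 and CDK6, at 39.7, 48.1 and 45.9 CPM against 4.42, 1.79 and 4.19 CPM. The second was Btg1, an antiproliferative gene, at 333, 237 and 613 CPM against 967, 789 and 1746 CPM.

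Growth and energy genes differed less. Over all 6972 genes, 2149 were above 0 and 2538 below 0 in each library. A log2 ratio of 1 in each was reached by 5.69%. Of 19 measured MYC and ribosome biogenesis genes 16 had a ratio above 0 in each library (median 0.65), and 1 reached a log2 ratio of 1 in each. Ncl, nucleolin, stood at 1347, 1283 and 1412 CPM against 707, 750 and 839 CPM. Of 27 respiratory chain genes 23 had a ratio above 0 in each library with a median of 0.33, and none reached 1. Cox5a, a subunit of cytochrome c oxidase, stood at 523, 628 and 519 CPM against 286, 405 and 286 CPM. Of 14 glycolysis genes 7 were above 0 and 5 below 0 in each library (median 0.11). Tpi1, triosephosphate isomerase, was the 1 past the ratio, at 122, 107 and 112 CPM against 36.8, 52.0 and 33.2 CPM, and Gapdh stood at 1122, 1937 and 1257 CPM against 587, 1077 and 652 CPM. Ldhb, lactate dehydrogenase B, went the other way, at 92.2, 130 and 105 CPM against 127, 155 and 124 CPM.

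Fewer genes were lower in members than in non-cycling mature cells, and Slfn5 was among the 10 lowest. Slfn5, of the Schlafen family, known for roles in T cell quiescence, stood at 8.83 CPM in p53+/- members, 8.84 in p53 AD/- members and 4.85 in p53-/- members, against 82.1, 58.0 and 103 CPM. The interval of its log2 ratio was -4.05 to -2.48 in p53+/-, -3.89 to -1.73 in p53 AD/- and -5.43 to -3.55 in p53-/-. Slfn1 and Slfn2 of the same family stood at 72.3, 72.7 and 81.6 CPM against 221, 208 and 226 CPM, and at 199, 186 and 219 CPM against 411, 414 and 463 CPM. All 20 measured interferon-stimulated genes were below 0 in each library, with a median log2 ratio of -0.89, and 5 were past -1 in each. Ifit1 and Ifit3, interferon-induced antiviral proteins, stood at 18.8, 26.5 and 21.2 CPM against 74.0, 78.9 and 88.4 CPM, and at 7.18, 4.91 and 4.41 CPM against 22.8, 23.3 and 27.3 CPM. In the Rag-free members 18 interferon-stimulated genes were measured, with a median of -0.42 and none past -1 in each library.

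Of 18 mature single-positive markers 17 were below 0 in each library against non-cycling mature cells (median -0.59), and 4 were past -1. Gimap3, a GTPase of lymphocyte survival, stood at 48.0, 62.9 and 54.7 CPM against 206, 206 and 185 CPM. S1pr1 stood at 87.2 CPM in p53+/- members, 156 in p53 AD/- members and 168 in p53-/- members, against 270, 313 and 367 CPM. Its Rag-free levels were 156, 245 and 261 CPM, between the 2 values in each library. The egress and homing list also held Slfn1 and Slfn2, which are Schlafen genes. These genes and S1pr1, also a mature marker, were the 3 of its 14 measured genes that were past -1 (median -0.60). Apart from the Schlafen genes, S1pr1 alone was past -1. In Rag-free members 1 of 13 was past -1 (median -0.18), and it was none of these 3. In the Rag-free members the median of the mature markers was -0.15 and 1 of 18 was past -1. Their summed level was 10302, 10148 and 10634 CPM, next to 11071, 12513 and 11319 CPM in non-cycling mature cells and 6799, 8310 and 7316 CPM in all members. Over all genes, the Rag-free members had 182 genes higher (3.81% of 4773 tested) and 38 lower (0.796%) than non-cycling mature cells, and 177 and 13 of these were also past the ratio in all members. Cell cycle genes had high ratios in them too, with 27 of 32 G2/M genes (median 3.84) and 23 of 30 S phase genes (median 2.12) past the ratio. The other genes with the lowest ratios were Scg5, Tcp11l2, Gpr83, Patj, Arhgap20 and Dlgap4, at most 17.7 CPM in members of any library. Gpr83 is also a regulatory T cell marker, and the limit on Foxp3 applied to members alone.

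**Figure D3:**
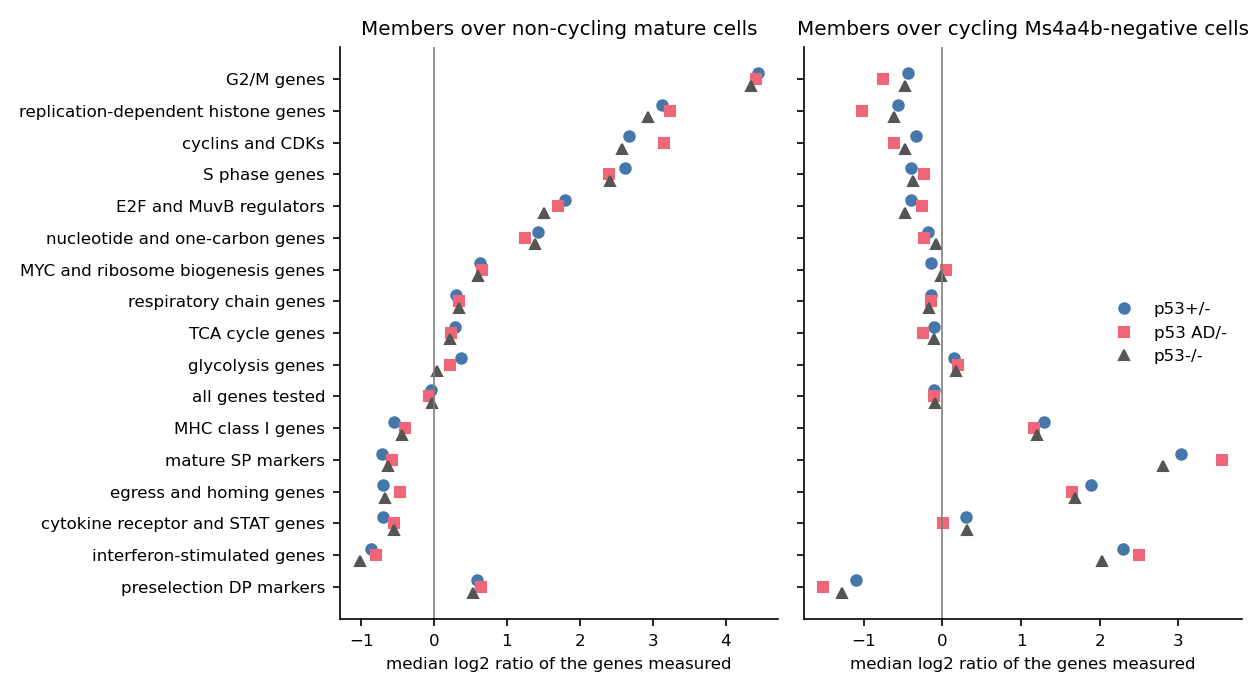
Median log2 CPM ratio of the measured genes of 16 lists and of all genes, members over non-cycling mature cells on the left and over cycling Ms4a4b-negative cells on the right. Points are the 3 libraries. Cell cycle lists lie far to the right in the left panel and slightly below 0 in the right panel, and the mature lists do the reverse.

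Against cycling Ms4a4b-negative cells, the members held most measured mature markers at higher levels and the preselection markers at lower levels. The rule chose the members by the mature gene Ms4a4b. Of 6712 genes, 155 were higher in members by a log2 ratio of at least 1 in each library (2.31%) and 76 were lower (1.13%). Without the p53 AD/- library they were 264 and 123. In Rag-free members the lower genes outnumbered the higher ones, with 122 higher (2.62% of 4665) and 209 lower (4.48%). Only the members were filtered for recombination transcripts, so the lower genes may partly follow from that filter. Of 17 measured mature single-positive markers 15 were higher (median 3.09), and so were 7 of 10 interferon-stimulated genes (median 2.33), 7 of 12 MHC class I genes (median 1.22) and 7 of 11 egress and homing genes (median 1.74). The median of all genes was -0.11. In Rag-free members 9 of 11, 5 of 7, 7 of 10 and 3 of 6 measured genes of these lists were higher. S1pr1 stood at 0.558, 0.717 and 2.79 CPM in cycling Ms4a4b-negative cells, so that its log2 ratio in members was 7.29 in p53+/-, 7.77 in the p53 AD/- library and 5.91 in p53-/-. Klf2, the transcription factor that drives S1pr1, stood at 283, 607 and 377 CPM in members against 6.76, 23.2 and 16.0 CPM. Ccr7 stood at 102, 213 and 178 CPM against 5.33, 5.94 and 8.81 CPM, and Itgb7, the beta7 integrin of gut homing, at 82.2, 108 and 87.4 CPM against 1.49, 1.54 and 2.28 CPM. For each of these 4 genes the lowest level of the members was in p53+/-. Igfbp4, Nkg7, Ctsw, Smad7, Gimap4 and Tesc completed the 10 genes with the highest ratios, from 4.01 to 5.96 over the 3 libraries. Il7r, the receptor for the survival cytokine interleukin 7, stood at 100, 79.6 and 126 CPM against 12.5, 8.09 and 16.2 CPM.

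The preselection genes were lower: of 16 measured markers all 16 were below 0 in each library (median -1.29), and 9 were past -1. In the Rag-free members the median was -2.92 over 13 measured genes. These members were chosen for lacking recombination transcripts and the cycling cells were not, so this value was partly set by the choice. Endou, a marker of double-positive cells, stood at 84.5, 64.8 and 93.1 CPM in all members, at 3.80, 8.43 and 10.6 CPM in Rag-free members and at 270, 234 and 283 CPM in cycling Ms4a4b-negative cells. Rag2, which the rule did not use, stood at 18.8, 19.6 and 16.8 CPM against 59.0, 80.0 and 51.9 CPM. The class II genes H2-Eb1, H2-Aa and H2-Ab1 had the lowest ratios of all, from -7.39 to -2.83, but the limit on Cd74 applied to the members alone. With the same limits in all groups, their mean ratios over the 3 libraries were -1.11, -1.13 and -1.20. Arsi, Syt13 and H2-T3 were also among the 10 genes with the lowest ratios, at most 19.9 CPM in members of any library. Cell cycle genes were close to the other cycling cells and mostly below them. Of 43 S phase genes 31 were below 0 in each library (median -0.34) with 2 past -1, and of 52 G2/M genes 51 were below 0 (median -0.54) with none past -1. Over all genes 2768 of 6712 were below 0 in each library. The G2/M genes summed to 19936, 22035 and 20712 CPM in cycling Ms4a4b-negative cells, above the members in each library.

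The D-type cyclins, which link outside signals to CDK4 and CDK6, differed in direction. Ccnd2 stood at 228 CPM in p53+/- members, 248 in p53 AD/- members and 353 in p53-/- members. It was higher in non-cycling mature cells, at 515, 632 and 746 CPM, and low in cycling Ms4a4b-negative cells, at 31.6, 22.8 and 36.3 CPM. The log2 ratio of members over cycling Ms4a4b-negative cells was 2.85 (2.66 to 3.04), 3.44 (3.18 to 3.71) and 3.28 (3.14 to 3.42). Ccnd3 stood at 289, 423 and 301 CPM in members, at 280, 273 and 307 CPM in non-cycling mature cells and at 597, 923 and 634 CPM in cycling Ms4a4b-negative cells. Its ratio over the latter was -1.05, -1.12 and -1.07. In p53 AD/-, 38.7% of the members' Ccnd3 UMIs came from 1 cell, and the Rag-free levels were 175, 217 and 204 CPM. Cdk6 stood at 71.2, 23.6 and 90.01 CPM in members and at 31.7, 12.6 and 25.9 CPM in Rag-free members. Members thus held more Ccnd2 and less Ccnd3 than the Ms4a4b-negative cycling cells in all 3 libraries.

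The BCL2 family sets the threshold of apoptosis. Against non-cycling mature cells none of 9 measured genes was past a ratio of 1 in each library, and 5 were below 0 in each. Over all genes 2538 of 6972 were below 0 in each. Against cycling Ms4a4b-negative cells 1 of 8, Bcl2, was past a ratio of 1, with 3 above and 3 below 0 in each library (median 0.05). Over all genes of that contrast 1436 of 6712 were above 0 and 2768 below. Bcl2, the survival factor of mature T cells, stood at 137, 142 and 147 CPM in members, between 291, 214 and 271 CPM in non-cycling mature cells and 26.3, 19.3 and 27.2 CPM in cycling Ms4a4b-negative cells. The 3 libraries hardly differed within members. Bcl2l1, which encodes BCL-XL and is known to keep double-positive cells alive, stood at 29.3, 22.6 and 20.3 CPM in members and at 50.3, 41.8 and 58.7 CPM in cycling Ms4a4b-negative cells. Its levels in non-cycling mature cells were 20.2, 11.4 and 31.1 CPM, so that the direction against them varied among libraries. In Rag-free members Bcl2l1 stood at 11.4, 12.6 and 7.06 CPM, and its mean log2 ratio over non-cycling mature cells went from 0.30 to -0.94.

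**Figure D4:**
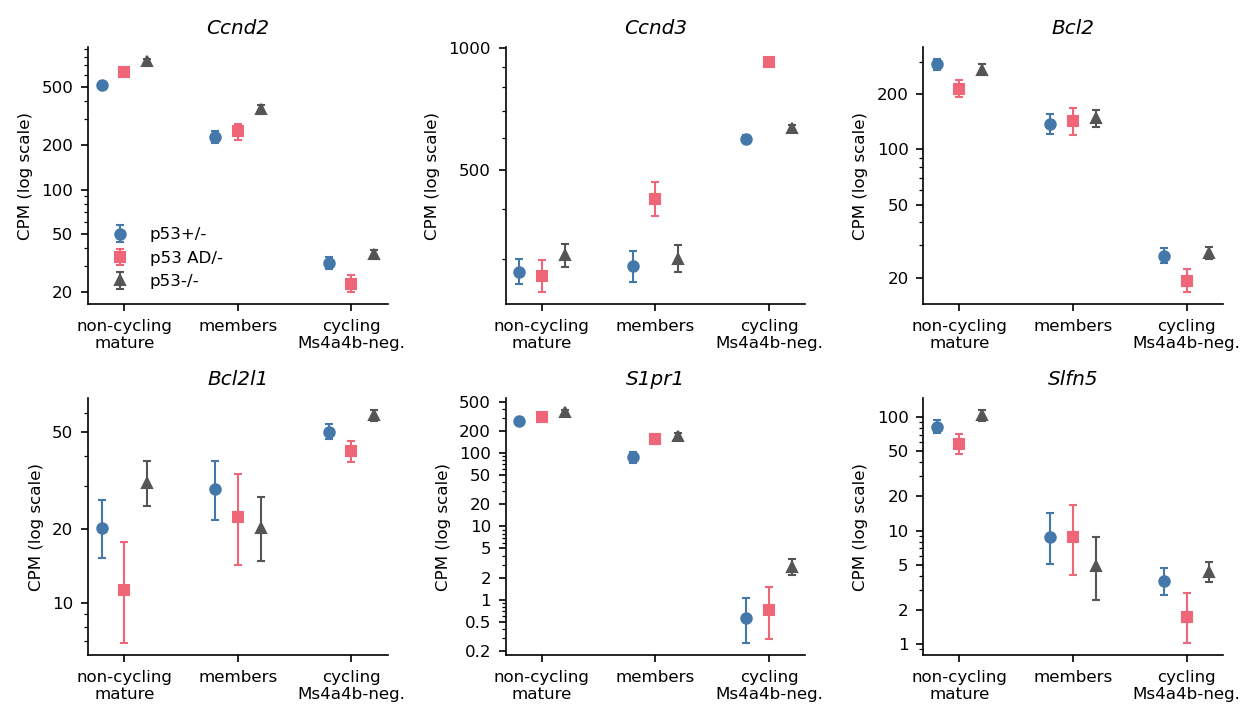
Levels of 6 genes (CPM, log scale) in non-cycling mature cells, members and cycling Ms4a4b-negative cells, with exact 95% counting intervals, for the 3 libraries. Ccnd2, Bcl2 and S1pr1 go down from left to right and Ccnd3 is highest in the cycling Ms4a4b-negative cells. Slfn5 is at 4.85 to 8.84 CPM in members and at 58.0 to 103 CPM in non-cycling mature cells.

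The genotypes differ in p53, and its transcript was found in the members of every library. Trp53 stood at 88.3 CPM in p53+/- members, 112 in p53 AD/- members and 80.7 in p53-/- members, from 160, 114 and 183 UMIs. Its log2 ratio was 0.47 (0.12 to 0.82) when p53 AD/- was set over p53-/-, and p53-/- over p53+/- gave -0.13 (-0.44 to 0.19). Since the deleted stretch of the null allele and the library chemistry are unstated, these counts cannot check the allele. Cdkn1a, the p53 target that inhibits cyclin-dependent kinases, had 3 UMIs in p53+/- members, 4 in p53 AD/- members and 25 in p53-/- members. Of the 25 UMIs 52.0% came from 1 cell, and 9 p53-/- members held any. Mdm2, the ligase that degrades p53 and is its target, stood at 33.1, 35.4 and 44.1 CPM, and the intervals of its 3 log2 ratios all held 0. Of 30 p53 target genes 13 were measured in p53 AD/- against p53-/-. Their median log2 ratio was -0.23, with 4 higher and 9 lower, beside -0.17 over all genes, of which 4580 of 7238 were lower. Against p53+/- the median was -0.41 for p53 AD/- (13 measured, all genes -0.08) and -0.23 for p53-/- (16 measured, all genes 0.08). In Rag-free members the genes with enough counts there had medians of 0.20 for the first pair, 0.03 for the second and -0.26 for the third. Over the genes measured in all members the Rag-free medians were -0.16, -0.22 and -0.28, so that the direction of the first 2 pairs depended on which genes were counted. Ddit4, a stress-induced inhibitor of mTORC1, stood at 32.6, 22.6 and 9.27 CPM, and Trp53inp1, a p53 target that promotes autophagy, at 71.8, 32.4 and 59.6 CPM.

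Counting all genes, p53 AD/- members had 76 genes higher by a log2 ratio of at least 1 (1.05% of 7238) and 561 lower (7.75%) than p53-/- members. The ratio's interval lay without 0 for 76 and 492 of them (1.05% and 6.8%). Against p53+/- members they had 115 higher (1.61% of 7138) and 396 lower (5.55%), with an interval without 0 for 105 and 326 (1.47% and 4.57%). Between p53-/- and p53+/- members, 194 genes were higher in p53-/- (2.25% of 8635) and 92 lower (1.07%), with such an interval for 149 and 72 (1.73% and 0.834%). The excess of lower genes in p53 AD/- depends on scaling. With TMM factors the calls were 131 higher and 399 lower than p53-/-, and with median-of-ratios factors 165 and 351, while the median of all genes went from -0.17 to -0.05 and 0.00. Against p53+/- they were 136 and 338, then 155 and 318. For p53-/- over p53+/- they were 155 and 112, then 143 and 115. The p53 AD/- members also held the fewest UMIs, 1018124 in all against 1811599 and 2266341. One member with 129874 UMIs gave 12.8% of the p53 AD/- total, and the next deepest held 44773.

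The median log2 ratio of the 43 S phase genes was 0.00 for p53 AD/- over p53-/-, -0.03 over p53+/- and 0.02 for p53-/- over p53+/-, and the G2/M medians were -0.22, -0.16 and 0.06. The G2/M medians of Rag-free members were -0.07, 0.27 and 0.35. Cyclins and their kinases had a median of -0.50 in the first pair, with 9 of 13 lower, and -0.17 in Rag-free members. Over all genes of that pair 4580 of 7238 were lower. Replication-dependent histone genes differed more between 2 of the pairs. All 15 measured were higher in p53 AD/- than in p53-/- (median 0.85) and all 15 were lower in p53-/- than in p53+/- (median -0.98), while p53 AD/- over p53+/- had a median of 0.10. Hist1h2ap, a histone H2A gene, stood at 7888 CPM in p53+/- members, 15310 in p53 AD/- members and 2121 in p53-/- members. It had the same order in non-cycling mature cells, at 259, 341 and 47.2 CPM, and in cycling Ms4a4b-negative cells, at 10619, 21170 and 2541 CPM. The histone median of p53 AD/- over p53-/- was 0.63 in the first group and 1.13 in the second. Hist1h3b, Hist1h1d and Hist2h3b, 3 more of the 8 highest genes of that pair, had ratios of 2.33, 1.71 and 2.05 in members. Since near-identical histone copies can share reads, these levels are uncertain gene by gene.

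Mitochondrially encoded transcripts were lower in p53 AD/- members. Of 13 genes 12 were lower than in p53-/- members (median -0.91) and 12 were lower than in p53+/- members (median -0.90), with 6 past -1 in each pair. mt-Nd6, a complex I subunit, stood at 120 CPM in the p53+/- library, 7.86 in p53 AD/- and 92.2 in p53-/-, and mt-Nd5, another subunit, at 735, 217 and 642 CPM. Only the p53 AD/- library stood apart for these 2 genes. The medians of p53 AD/- over p53-/- were -0.72 in non-cycling mature cells and -0.99 in cycling Ms4a4b-negative cells. Over all genes, 2658 of 7238 were higher in p53 AD/- than in p53-/- members and 3134 of 7138 higher than in p53+/- members. Glycolysis genes were higher in 10 of 13 cases in both pairs, with medians of 0.31 over p53-/- and 0.47 over p53+/-, and 1 gene was past a ratio of 1. This was Eno1, the glycolytic enolase, at 227 CPM in p53+/-, 465 in the p53 AD/- library and 204 in p53-/-. The nuclear respiratory chain genes had medians of 0.13 and 0.22. In both comparison groups glycolysis genes had medians of similar size, 0.40 and 0.31 over p53-/- and 0.73 and 0.45 over p53+/-, and these genotype differences are thus not shown to be particular to the members.

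**Figure D5:**
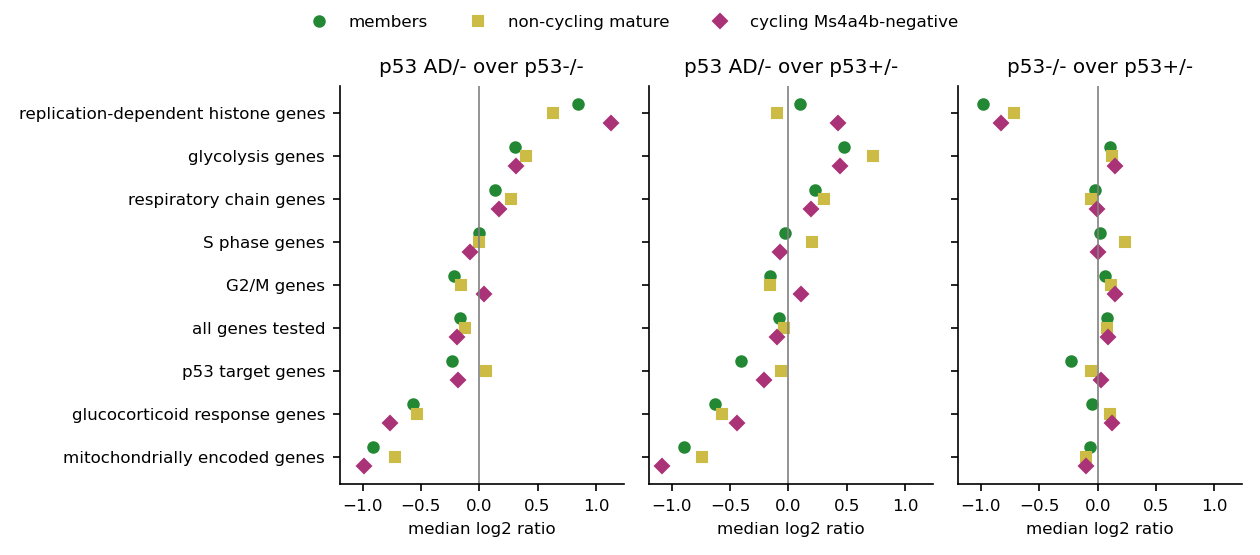
Median log2 CPM ratio between genotypes for 8 gene lists and all genes, in members and in both comparison groups, 1 panel per pair of libraries. The histone and mitochondrial medians of p53 AD/- over p53-/- lie at 0.85 and -0.91 in members and on the same side of 0 in both comparison groups.

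Among the other genes with the clearest genotype ratios, Gstp1, a glutathione transferase, stood at 92.7 CPM in p53+/- members, 178 in p53 AD/- members and 41.0 in p53-/- members. Its log2 ratio of p53 AD/- over p53-/- was 2.12 in members, 2.27 in non-cycling mature cells and 2.04 in cycling Ms4a4b-negative cells. Of 14 glucocorticoid response genes 10 were measured in members, with 8 lower in p53 AD/- than in p53-/- (median -0.57) and 9 lower than in p53+/- (median -0.63). Over all genes 4580 of 7238 and 4004 of 7138 were lower in these pairs. Of the glucocorticoid list, Zfp36l2, an RNA-binding protein that restrains cell cycle entry in thymocytes, stood at 339, 77.6 and 334 CPM and was low in p53 AD/- alone. Tsix, antisense to Xist, stood at 119, 25.5 and 207 CPM. No strand setting is named in the sources, so reads of Tsix and Xist cannot be told apart. The chaperone genes Hspa8 and Hsph1 stood at 1074, 2208 and 1196 CPM and at 34.2, 100 and 34.9 CPM, highest in p53 AD/-. Tubb3, a beta tubulin, stood at 3.86, 31.4 and 15.9 CPM, with 7, 32 and 36 UMIs.

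Of 15 immediate early genes 11 were measured in p53 AD/- over p53-/- members, with 9 lower and a median log2 ratio of -0.39. Their median was further from 0 outside the members, at -1.17 in non-cycling mature cells and -1.09 in cycling Ms4a4b-negative cells. Over all genes of that pair 4580 of 7238 were lower, with a median of -0.17. In p53-/- over p53+/- members 14 were measured, with 9 higher and a median of 0.31. Over all genes 5203 of 8635 were higher there, a similar share, with a median of 0.08. In p53 AD/- over p53+/- members 8 of 12 were lower, with a median of -0.08, beside -0.08 over all genes. Dusp5, a phosphatase of ERK that is induced by it, stood at 42.0 CPM in the p53+/- library, 15.7 in p53 AD/- and 112 in p53-/-. Junb, an AP-1 subunit, stood at 221, 208 and 539 CPM, and Nr4a1, a nuclear receptor induced by T cell receptor signals, at 28.7, 7.86 and 54.7 CPM. The order of the 3 libraries was the same for all 3 genes. For Junb the log2 ratio of p53 AD/- over p53+/- was only -0.08. The log2 ratio of Dusp5 in p53-/- over p53+/- was 1.42 in members, 1.34 in non-cycling mature cells and 1.64 in cycling Ms4a4b-negative cells. Hes1, a Notch target, and Ly6d stood at 32.0, 5.89 and 64.4 CPM and at 99.9, 38.3 and 194 CPM, but at 2.53, 0 and 7.06 CPM and at 6.33, 0 and 11.8 CPM in Rag-free members. In both genes the members with recombination transcripts held most of the UMIs. Olfr1369-ps1, listed as a pseudogene and uncertain for that reason, stood at 19.9, 12.8 and 71.9 CPM. Klf2 and Igfbp4 were also among the 8 genes highest in p53 AD/- over p53+/-, with log2 ratios of 1.10 and 1.30 in all members and 0.62 and 1.18 in Rag-free members.

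Several named genotype differences rested on few cells. Ccl5, a chemokine of effector and innate T cells, had 416 UMIs in 8 p53+/- members, 37 in 3 p53 AD/- members and 4 in 3 p53-/- members. Klra1 and Klra7, receptors of the Ly49 family with near-identical copies, had 48 and 49 UMIs in 2 p53+/- members and at most 1 UMI in the other libraries. Fcer1g, a signalling chain of innate cells, had 34 UMIs in 4 p53+/- members, and S100a4 and S100a6 had 162 and 207 UMIs in 9 and 11. Summed over 18 innate-like and cytotoxic markers, the members stood at 980, 796 and 605 CPM, and non-cycling mature cells at 1100, 983 and 904 CPM. Xcl1, a chemokine, had 33 UMIs in 6 p53+/- members, 77 in 5 p53 AD/- members and 29 in 6 p53-/- members, and 58.4% of the p53 AD/- UMIs came from 1 cell. Apoe had 37 UMIs in p53 AD/- members, of which 86.5% came from 1 cell. In p53-/- members, Cpa3 had 43 UMIs in 5 cells, Gfod2 had 36 in 7 and Iigp1, an interferon-induced GTPase, had 41 in 9. Maf, a transcription factor of helper and innate T cells, had 36 UMIs in 14 p53-/- members and 5 UMIs in 4 p53+/- members. Spata7 had 59 UMIs in 16 p53+/- members, 2 in 2 p53 AD/- members and 78 in 17 p53-/- members. Gpr108 had 10, 25 and 35 UMIs, and Ifih1, a sensor of viral RNA, had 39, 2 and 24.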

How the data were processed

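Single-cell RNA-seq libraries of whole thymus, 1 per genotype, were used as deposited: UMI counts per gene and cell barcode, which per the file headers the authors made with Cell Ranger 4.0.0. The submitters' processing notes name build GRCm38. Chemistry and strand setting are not named in the sources. Deposited counts were read with Python 3.11.15 and scanpy 1.11.5. Cells with at least 500 genes and under 10% mitochondrial UMIs were kept, and UMIs were summed per library and cell group and divided by the group's total (CPM). A log2 CPM ratio carries an exact conditional binomial 95% interval, a share an exact Clopper-Pearson interval and a level an exact Poisson interval. Genes entered a comparison with an expected count of at least 10 in each group if both had 1 level. A group without UMIs was set to a floor of 3 UMIs. Called means a log2 ratio of at least 1, in each of the 3 libraries for the members against another group. TMM factors came from edgeR 4.0.16 and served as an alternative scaling. The log2 ratios and the intervals were tested on simulated counts. Genes named are the 10 highest and 10 lowest of each contrast between cell groups by the ratio nearest to 0, all libraries of 1 sign, the 8 highest and 8 lowest of each genotype pair by the interval bound nearest to 0, and up to 6 genes of a list. Mitochondrial, ribosomal protein, haemoglobin, receptor segment, unnamed and rule genes were left out of the ranking. Some genes that the ranking or the lists would name are not reported here. The members and gene lists were chosen with earlier results of these data known. The alternatives were cell and rule limits, thinning, scaling, the count minimum, Scrublet scores, Rag-free members and each library left out.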

Additional observations from a re-analysis of the deposited data

Results flagged for a closer look

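Bcl2l1, which encodes the survival protein BCL-XL, went in opposite directions in 2 libraries when members were set against non-cycling mature cells. Its log2 CPM ratio was 0.99 (0.05 to 1.95) in p53 AD/- and -0.62 (-1.16 to -0.09) in p53-/-, with 0.53 in p53+/-. With 1 library per genotype the difference was not tested. Of the 23 Bcl2l1 UMIs in p53 AD/- members, 43.5% came from 1 cell.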

How the results depend on the processing

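With 1 library per genotype, library and genotype cannot be told apart, and 67 to 147 members per library limit low genes. Members were set against the comparison groups within each library. Between genotypes no pairing was possible because each genotype has 1 library, and no test was made. The share of members went to 0.908% (p53+/-) and 1.19% (p53-/-) with at least 3 Ms4a4b UMIs, to 0.920%, 0.826% and 1.24% (p53+/-, p53 AD/-, p53-/-) with at least 4 Mki67 and Top2a UMIs, to 0.626%, 0.664% and 0.723% for Rag-free members, to 0.623% in p53+/- after thinning, to 1.41% in p53 AD/- with at least 1000 genes and to 1.16% in p53-/- without top Scrublet scores. The Rag-free share went to 67.6% and 57.9% (p53+/-, p53-/-) with at least 3 Ms4a4b UMIs and to 93.1% and 72.6% after thinning. Against non-cycling mature cells, 52 genes were lower with at least 3 Ms4a4b UMIs, 54 with mean CPM over cells, 155 with an expected count of at least 3, and 141 to 231 with 1 library left out (231 without p53 AD/-). Rag-free members gave 182 higher and 38 lower, and an expected count of at least 30 gave 219 and 53. Against cycling Ms4a4b-negative cells, 153 genes were lower with at least 3 Ms4a4b UMIs, 209 in Rag-free members and 184 with mean CPM. Higher and lower were 64 and 49 with an expected count of 30, 313 and 118 with 3, and 174 to 264 and 111 to 123 with 1 library left out (264 and 123 without p53 AD/-). For genotypes, an expected count of 30 gave 193, 125 and 66 genes past the ratio (p53 AD/- over p53-/-, then p53 AD/- and p53-/- over p53+/-), also with an interval without 0, and an expected count of 3 gave 1424, 1277 and 924. The minimum itself sets how many genes are tested, and the cause of the other differences was not tested. Among genotype ratios of named genes whose interval held no 0, and ratios of named genes against another cell group with 1 direction in all libraries, directions reversed for 4 genes. Without the deepest member, Rag-free members gave log2 ratios for p53 AD/- over p53-/- of -1.49 (Xcl1) and -0.43 (Nkg7), and over p53+/- of -1.30 (Xcl1), -0.87 (Nkg7) and -0.21 (Apoe). With it, the ratios over p53+/- were -0.16 (Nkg7) and -0.27 (Apoe). Apoe over p53+/- was also -1.26 without top Scrublet scores, -0.79 without the deepest member and -0.041 with mean CPM. Cdk6 in p53-/- over p53+/- was -0.29 in Rag-free members and -0.76 without the deepest of them. Histone medians of p53 AD/- over p53-/- stayed between 0.85 and 1.22 under the alternatives run, and mitochondrial ones between -1.12 and -0.74.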

Other observations

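Granulocyte markers summed to 1710 CPM in the cycling Ms4a4b-negative cells of p53-/-, against 0.82 to 12.5 CPM in the same group of the other libraries and 12.8 CPM in p53-/- members. Cdkn2a, the locus of the tumour suppressors p16 and p19ARF, had 29 UMIs in 5 p53-/- members, 6 UMIs in 4 p53+/- members and none in p53 AD/- members. The granulocyte sum was singled out after its values were seen.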
